A study of Mus musculus with 2 samples.

Results

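Of the 1973 microRNA (miRNA) genes in the deposited tables, 81 lay in very short introns. A gene was taken where at least 80% of its length overlapped, on the same strand, an intron of 150 nt or less of a protein-coding transcript in GENCODE M21 on the mouse GRCm38 assembly. The rule itself uses no measured value, though it was chosen with earlier results of these data known. The data came from microRNA-seq of RNA under 30 nt from single hindbrains of 2 B6NCrl mouse pups, pup 1 and pup 3, taken on postnatal day 0. The labels record no treatment, transgene or allele and no sex, and they give both pups 1 donor identifier. The pups form 1 group, so the only comparison possible was of one library with the other. Pup 1 had 4906127 counts in the sense direction of the genes (own-strand counts) and pup 3 had 6238680, and levels are given as CPM, own-strand counts per 1000000 of these. Mir10a, a miRNA gene of a Hox cluster, stood at 32189 (pup 1) and 24602 CPM (pup 3). It is 1 gene, with no other tissue to compare, so it does not test the hindbrain label.

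Most miRNAs are cut from their primary transcripts in the nucleus by Drosha with its partner Dgcr8. A mirtron is a short intron that folds into a hairpin once it has been spliced out and debranched, so that splicing takes the place of Drosha, and Dicer then cuts the hairpin as usual. In a classic mirtron both ends of the hairpin are the splice sites. In a tailed mirtron only one end is, and the extra intron sequence at the other end is trimmed away. Mir877 and Mir1224 are classic mirtrons shared among mammals. The label "mirtron-like" rests here on position alone, since neither splicing nor Drosha was manipulated.

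The precursors showed this design in their letters. The following 3 sequences (GENCODE M21, GRCm38, own strand) fill an intron from end to end or reach its 3′ end, and capitals mark the GU of the 5′ splice site and the AG of the 3′ splice site where the precursor holds them. Mir877 lies at chr17:35960730-35960814 on the minus strand in intron 12 of Abcf1, and Mir1224 at chr16:20604452-20604536 on the plus strand in intron 22 of Vwa5b2. Mir7226 lies at chr4:118210505-118210564 on the minus strand in intron 31 of Ptprf and starts 52 nt inside it.
Mir877: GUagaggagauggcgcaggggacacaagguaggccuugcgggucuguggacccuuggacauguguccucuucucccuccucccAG
Mir1224: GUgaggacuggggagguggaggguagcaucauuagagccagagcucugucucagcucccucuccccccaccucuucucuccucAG
Mir7226: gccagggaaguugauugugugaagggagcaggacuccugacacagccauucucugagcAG

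The mature arms of the 7 most abundant genes are shown next (RefSeq, GRCm38.p6), with the seed, bases 2 to 8, in capitals. Mir3102 has a second pair of arms that is not shown.
mmu-miR-702-5p: gUGAGUGGggugguuggcaug
mmu-miR-702-3p: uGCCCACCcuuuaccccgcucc
mmu-miR-1224-5p: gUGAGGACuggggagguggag
mmu-miR-1224-3p: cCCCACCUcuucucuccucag
mmu-miR-877-5p: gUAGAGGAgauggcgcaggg
mmu-miR-877-3p: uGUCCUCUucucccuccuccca
mmu-miR-3102-5p: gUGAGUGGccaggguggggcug
mmu-miR-3102-3p: gAGCACCCcauuggcuacccaca
mmu-miR-1981-5p: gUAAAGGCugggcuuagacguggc
mmu-miR-1981-3p: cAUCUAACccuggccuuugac
mmu-miR-3547-5p: gUGGGAAGagggguggggcccggga
mmu-miR-3547-3p: uGAGCACCaccccucucucag
mmu-miR-6944-5p: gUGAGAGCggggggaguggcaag
mmu-miR-6944-3p: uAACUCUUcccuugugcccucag

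All 7 of these 5p arms begin with GU, and miR-702-5p and miR-3102-5p share the seed UGAGUGG. The deposited counts are per gene, so they do not say which arm was present.

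The 81 genes fell into 4 kinds by where the annotated precursor ended, with an end counted at a splice site when it lay within 5 nt. In 22 genes both ends did so, as in classic mirtrons, and in 47 only the 3′ end did. In 5 genes only the 5′ end lay at its splice site, and in 7 neither did. The fit was exact to the base at both sites in 21 genes, and 20 of these start with GU and end with AG. Of the 47 genes at the 3′ splice site alone, 45 left intron upstream, the shortest stretch being 7 nt and the longest 80 nt. The other 2, Mir702 and Mir3062, began 9 and 6 nt before the intron, within the upstream exon. Introns ranged from 66 to 144 nt with a median of 90 nt. The genes lay in 79 hosts, with Skiv2l, an RNA helicase gene, and Arap3 each holding 2. In 23 cases an exon of the host overlaps part of the gene. Exons of any host transcript were counted, including those next to the intron itself, as for Mir702.

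RefSeq gave mature arms for 69 of the 81 genes, 132 in all, of 19 to 26 nt. Arms met the splice sites as the precursors did. Among genes with both ends at splice sites, 16 of 20 5p arms started on the first base of the intron. In the same genes 11 of 18 3p arms stopped on its last base and 16 within 2 nt of it. Among genes with only the 3′ end there, 29 of 38 3p arms stopped on the last base, and 1 of 37 5p arms started on the first. For Mir702 the 5p arm started on the first base of the intron even though the annotated precursor does not. Mir1982 was the reverse, with a 5p arm that started 11 nt inside an intron its precursor fills.

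**Figure D1:**
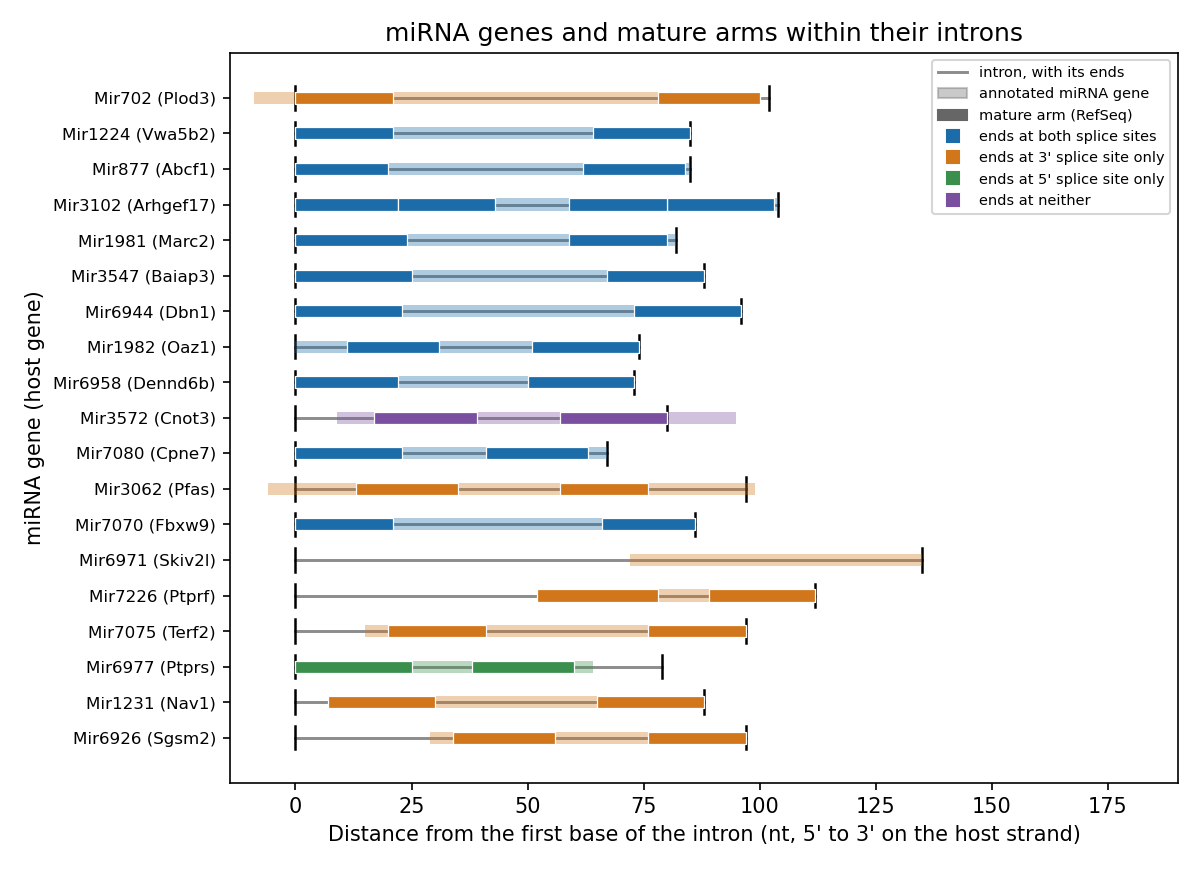
Position of the 19 genes detected at 2 CPM in both pups within their host introns; the x axis is the distance from the first intron base in nt, lines are introns, pale boxes annotated miRNA genes and dark boxes mature arms. The 10 blue genes span their introns, Mir7226 starts 52 nt inside its intron, and Mir6971 has no mature arm in the table used.

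A G-rich 5p arm faced a C-rich 3p arm. The median share of G in 5p arms was 50% (66 arms), against 34.8% in 284 5p arms of miRNA genes in longer introns of protein-coding transcripts. The median share of C in 3p arms was 42.9% (65 arms) against 31.8% (294 arms). G was scarce in the 3p arms, with a median of 14.3%, and C in the 5p arms, with a median of 12.5%. Precursors had a median GC content of 60.3%, against 50% for genes of longer introns and 51.0% for all genes. The nearest class, the 107 genes in introns of over 150 to 1000 nt, lay closer to the set, at 56.8%. These are descriptions of annotated sequences, and no test was made.

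**Figure D2:**
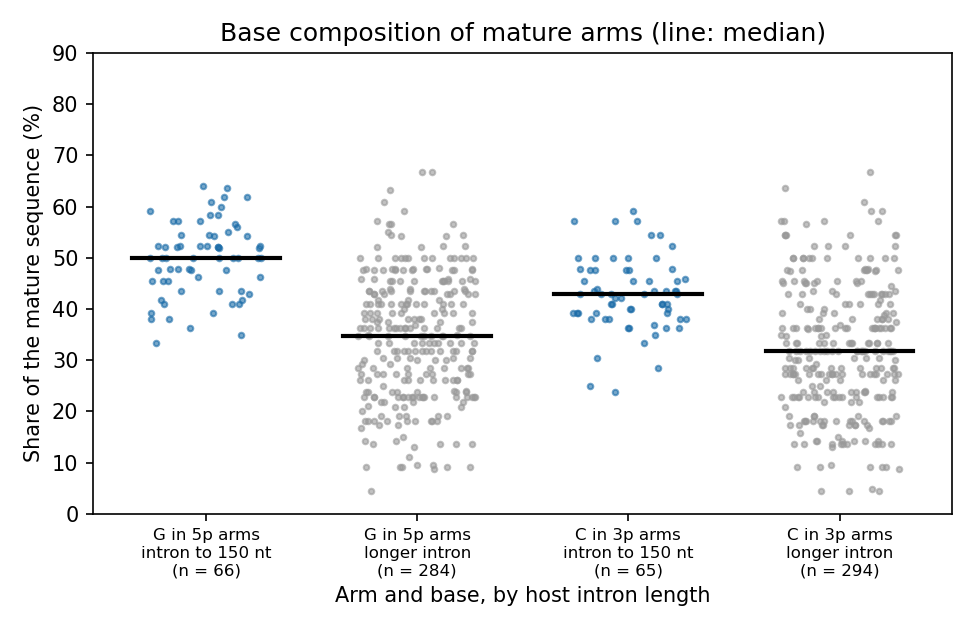
Share of G in 5p arms and of C in 3p arms (y axis, %), 1 point per mature arm and a line at the median, for introns of up to 150 nt (blue) and longer introns (grey). The medians are 50% against 34.8% for G and 42.9% against 31.8% for C.

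Of the 132 arms, 36 had a seed that another listed arm also carries. Among them 13 shared a seed with an arm of another gene in the set and 25 with a mature miRNA outside it. The copies Gm27740 and Gm27775, which both carry miR-6967 and had 0 counts in both pups, account for some of the 13. miR-7018-3p, miR-7023-3p and miR-7068-3p share CACCCUG, miR-6927-5p and miR-7070-5p share UGAGGGG, and miR-7034-5p and miR-7071-5p share CCGGGAG. Among detected genes, 6 arms share a seed with a mature miRNA outside the set. One of them, miR-6958-5p, has the seed of the 3p arms of Mir30c-1 and Mir30c-2. Another, miR-3547-5p, has that of miR-6368, miR-6404 and miR-6405. A shared seed is a match of letters only.

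Measured levels were low. The set held 5409 of the own-strand counts in pup 1, or 0.110% (exact Clopper-Pearson 95% interval 0.107 to 0.113), and 3600 in pup 3, or 0.0577% (0.0558 to 0.0596). The mean share was 0.0840% ± 0.0372 (SD, n = 2 pups). These intervals cover counting error only and take each read as a molecule of its own. Without Mir702 the shares were 0.0840% and 0.0513%. The 5 genes of highest level, Mir702, Mir1224, Mir877, Mir3102 and Mir1981, took 77.3% of the set's counts in pup 1 and 71.9% in pup 3. They are also the 5 mirtrons listed by name below. That list was made with earlier results of these data known, so the match is not a result.

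Detection, at least 2 CPM in both pups, was met by 19 of the 81 genes, or 23.5%. Over all miRNA genes in the tables the share was 20.6%, over the 1051 with a Mir symbol 38.3%, and over the 672 in longer introns 25.1%. Most genes without a Mir symbol were not detected, and the set held only 5 of them. Among genes with a Mir symbol, 25% of the 76 in the set were detected against 35.1% of the 476 in longer introns, a difference that was not tested. A further 48 genes had counts without reaching 2 CPM in both pups. The remaining 14 had 0 counts in both, which allows up to 0.611 and 0.481 CPM, respectively. Over all members, detected or not, the median of the mean level was 0.706 CPM, against 0.102 CPM in longer introns. With a Mir symbol it was 0.779 against 0.706 CPM. These medians lie under the detection limit, so they do not settle whether the typical member was lower. The upper part of the range differed. Among genes that passed the detection limit, the median of the 19 in the set was 6.28 CPM, against 150 CPM for the 169 detected in longer introns and 178 CPM for all 407 detected. No gene in the set averaged 1000 CPM, while 42 in longer introns did. Introns of 100 nt or less gave 15 detected of 58, and those of over 100 to 150 nt gave 4 of 23.

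**Figure D3:**
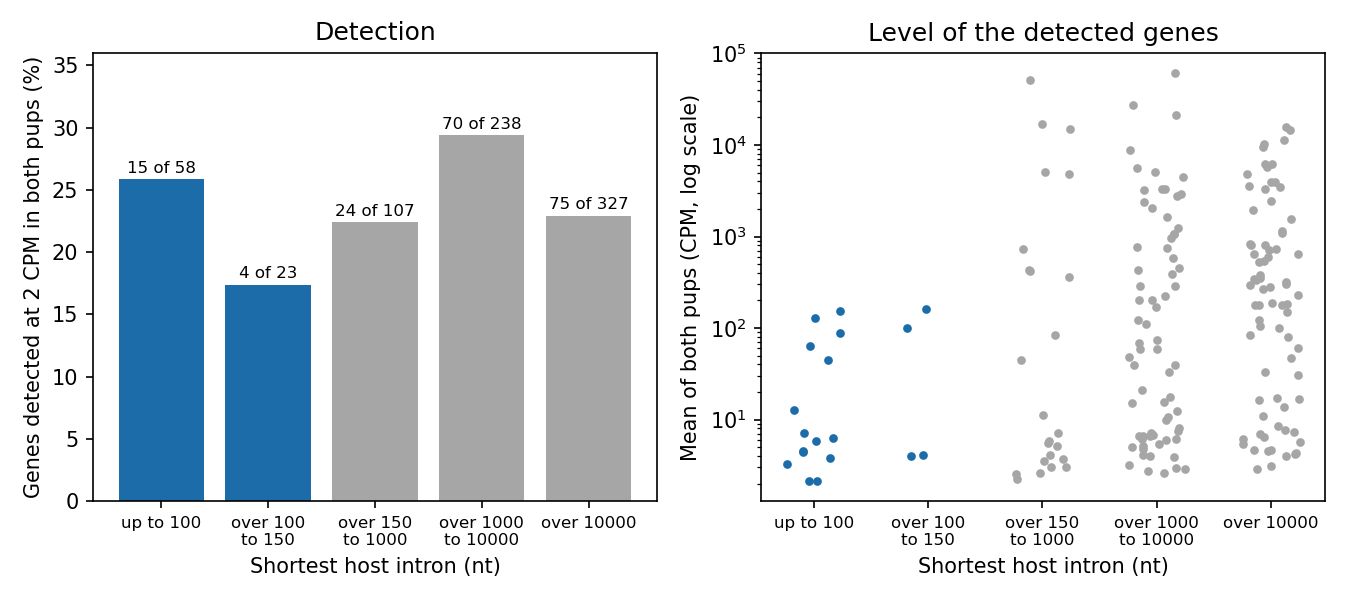
Left, share of miRNA genes detected at 2 CPM in both pups (y axis, %) by length of the shortest host intron (x axis, nt), with counts above the bars; right, mean CPM of the detected genes on a log scale, 1 point per gene, with random sideways spread. The blue classes up to 150 nt reach 15 of 58 and 4 of 23, and no blue point lies above 163 CPM.

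Genes with both ends at splice sites were detected in 10 of 22 cases, or 45.5%, and those with the 3′ end alone in 7 of 47, or 14.9%. The single detected genes of the other kinds were Mir6977 (5′ end alone, 1 of 5) and Mir3572 (neither end, 1 of 7). Genes with both ends there held 69.5% of the set's counts in pup 1 and 79.9% in pup 3. Of the counts of genes with the 3′ end alone, 1565 in pup 1 and 641 in pup 3, Mir702 made up 1289 and 400. The other 46 genes of that kind averaged at most 4.57 CPM, in Mir3062. Opposite-strand counts of the set were 2 in each pup, so its counts came from the host's strand.

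Several of the most abundant genes have both ends at splice sites. Among them, Mir1224 stood at 171 CPM for pup 1 and 138 CPM for pup 3 (mean 154 ± 23.3, SD). Mir877, in a host that acts in translation initiation, had 159 and 96.2 CPM (128 ± 44.4). Mir3102 (chr7:100882306-100882409, minus strand, intron 8 of Arhgef17) had 147 and 51.1 CPM (99.0 ± 67.8). Mir1224 and Mir877 lay closer together in the pups than Mir3102 did, and all 3 were lower in pup 3. Mir1981 (chr1:184822407-184822488, minus strand, intron 5 of Marc2, a mitochondrial reductase gene) had 113 and 65.6 CPM (89.0 ± 33.2). Mir3547 (chr17:25245551-25245638, minus strand, intron 25 of Baiap3, of the Munc13 family of exocytosis proteins) had 68.9 and 59.6 CPM (64.3 ± 6.55). Mir6944 (chr13:55477681-55477776, minus strand, intron 9 of Dbn1, the actin-binding drebrin of dendritic spines) had 65.0 and 25 CPM (45.0 ± 28.3). With SDs this wide over 2 pups, the order from Mir1224 down to Mir6944 is not settled between neighbours. Differences between genes in how well small RNA is captured were not measured.

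Mir702 led the set by mean and had the widest SD between the pups. It lies at chr5:136991433-136991541 on the plus strand, in intron 13 of Plod3, a collagen lysyl hydroxylase gene, and reaches from the upstream exon to 2 nt before the intron's end. Pup 1 had 263 CPM of it and pup 3 had 64.1 CPM (163 ± 140). In pup 3 it lay below Mir1224, Mir877 and Mir1981, so its first place rested on pup 1. By mean level it ranked 209 of 1973 genes, and Mir1224 ranked 211.

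The next genes were lower. Mir1982, in intron 5 of Oaz1, the antizyme gene that restrains polyamine synthesis, had 15.3 and 10.3 CPM in the same order of pups. The remaining 11 detected genes averaged under 10 CPM, from 7.17 CPM for Mir6958 (Dennd6b) to 2.14 CPM for both Mir1231 (Nav1) and Mir6926 (Sgsm2). Mir7080 (Cpne7) had 8.56 and 3.05 CPM, and Mir3572 (Cnot3, a subunit of the main deadenylase complex) had 8.56 and 4.01 CPM. Mir7070 (Fbxw9) had 5.71 and 3.05 CPM and Mir3062 (Pfas, of purine synthesis) 4.48 and 4.65 CPM. Mir6971 (Skiv2l) and Mir7075 (Terf2, a telomere protein gene) each had 4.48 CPM in pup 1, with 3.69 and 3.05 CPM in pup 3. These values rest on 10 to 42 counts per library. Mir7226 (5.50 and 2.40 CPM) and Mir6977 (3.87 and 2.72 CPM) lie in Ptprf and Ptprs, paralogous receptor tyrosine phosphatases of axons and synapses.

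**Figure D4:**
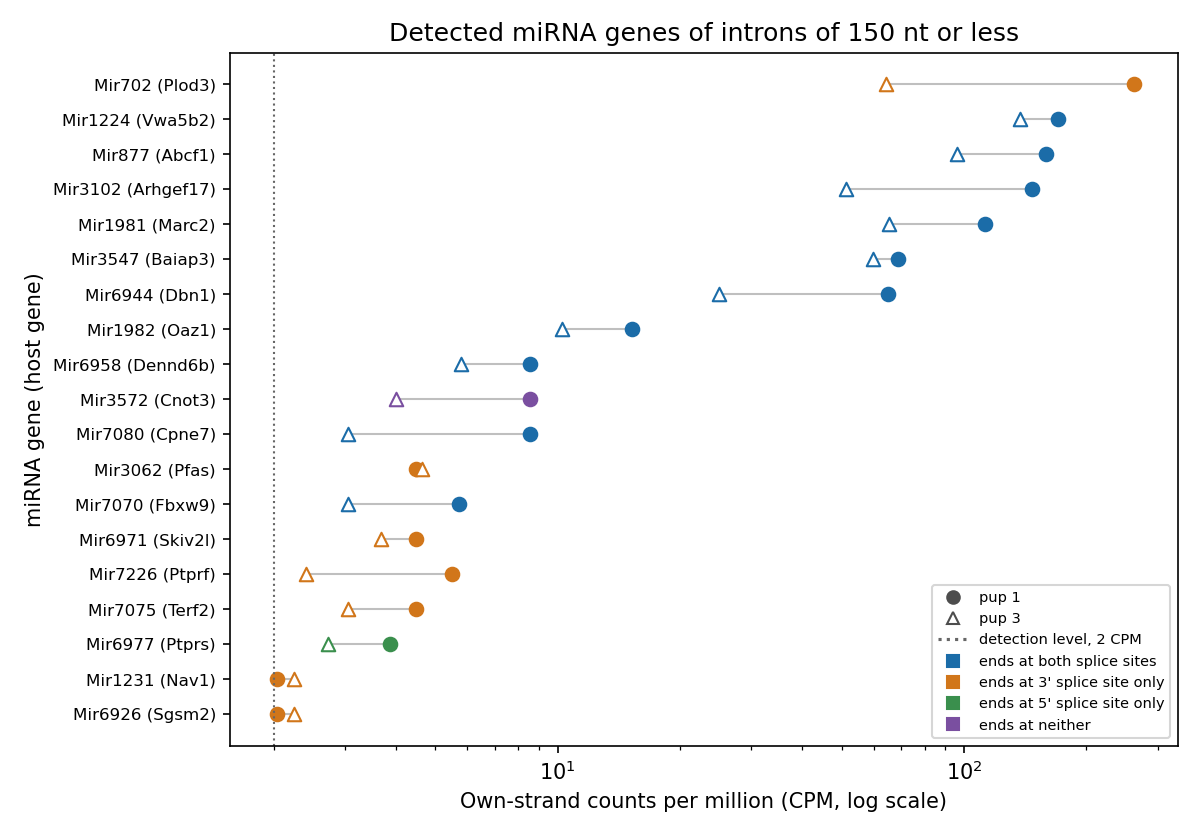
CPM (x axis, log scale) of the 19 detected genes, with circles for pup 1, triangles for pup 3, a dotted line at 2 CPM and colour by which precursor ends lie at splice sites. The triangle lies left of the circle in 16 genes, and Mir702 spans 263 to 64.1 CPM.

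Counts next to the length limit were too low to show whether it sat at a step in level. Just inside it, Mir6901 (intron of 144 nt, Sned1), Mir7074 (143 nt, Slc12a4) and Mir6968 (142 nt, Phf1) had 1, 3 and 11 counts in pup 1 and 6, 0 and 8 in pup 3. Just outside, Mir7036 (151 nt, Srrt), Mir6914 (154 nt, Ankrd52) and Mir6992 (155 nt, Stx5a) had 3, 4 and 1 counts in pup 1 and 1, 1 and 0 in pup 3.

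Mir320 and Mir484 are hairpin miRNAs that bypass Drosha without being mirtrons, and neither was in the set. Mir320 had 1109 and 814 CPM in pups 1 and 3 (961 ± 209), and Mir484 had 5012 and 3608 CPM (4310 ± 993). Both lay above every gene of the set in each pup.

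The 2 libraries were compared gene by gene with an exact binomial test with the expected ratio set by library sizes after TMM scaling, Benjamini-Hochberg adjusted over the 508 miRNA genes with 10 or more counts in sum. Its p-values cover counting error and compare libraries, not conditions. Of the 81 genes 36 were tested, and 5 passed an adjusted p under 0.05 with a difference of at least 2-fold, all lower in pup 3. Over all 508, 5.71% were called lower and 0.984% higher. At any fold, 9 of the 36 passed lower and 0 higher, where the background was 23.8% lower and 23.8% higher. The share passing lower at any fold, 9 of 36, thus lay near the background. The median log2 difference (pup 3 minus pup 1) of the 36 was -0.37, with 27 negative, against -0.02 over all 508, with 264 negative. Without Mir702 the median was -0.37 over 35 genes.

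The 5 called genes were Mir702, Mir3102, Mir6944, Mir7080 and Mir7069. Mir702, with 1289 counts in pup 1 and 400 in pup 3, had a log2 difference of -1.88 with a counting SE of 0.08 (exact binomial test, adjusted p = 8.19e-138). Its difference was the largest in size among the 508 tested genes. Mir3102, with 721 and 319 counts, differed by -1.37 with an SE of 0.10 (exact binomial test, adjusted p = 1.70e-49). Mir6944, with 319 and 156 counts, differed by -1.21 with an SE of 0.14 (exact binomial test, adjusted p = 4.28e-19). Mir7080 differed by -1.13 with an SE of 0.32 and Mir7069, in an intron of the tRNA synthetase gene Farsa, by -1.09 with an SE of 0.40 (exact binomial test, adjusted p = 0.00119 and 0.0271). Mir7069 had 15 and 5 counts, or 3.06 and 0.801 CPM, and was not among the detected genes. Both calls were lost with a pseudocount of 5 CPM, at -0.68 for Mir7080 and -0.44 for Mir7069, and neither gene was tested with a minimum of 100 counts in sum.

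The difference was uneven among the genes with both ends at splice sites. Mir1224 differed by -0.17 with an SE of 0.07 (exact binomial test, adjusted p = 0.0317) and Mir3547 by -0.07 with an SE of 0.11 (exact binomial test, adjusted p = 0.654). Mir877 and Mir1981 lay between, at -0.58 with an SE of 0.08 and -0.63 with an SE of 0.09 (exact binomial test, adjusted p = 2.05e-13 and 2.69e-11), short of 2-fold. With TMM scaling all 10 detected genes with both ends at splice sites were lower in pup 3. Of these, Mir3547 turned to 0.020 with DESeq2 size factors. Of the 7 detected with the 3′ end alone 4 were lower and 3 higher. Over tested genes, detected or not, the kinds lay closer together. With both ends there 10 of 11 were lower and 1 higher, and with the 3′ end alone 14 of 20 were lower and 6 higher. Among all 407 detected genes 209 were lower. For comparison, Mir320 and Mir484 differed by -0.31 and -0.34.

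**Figure D5:**
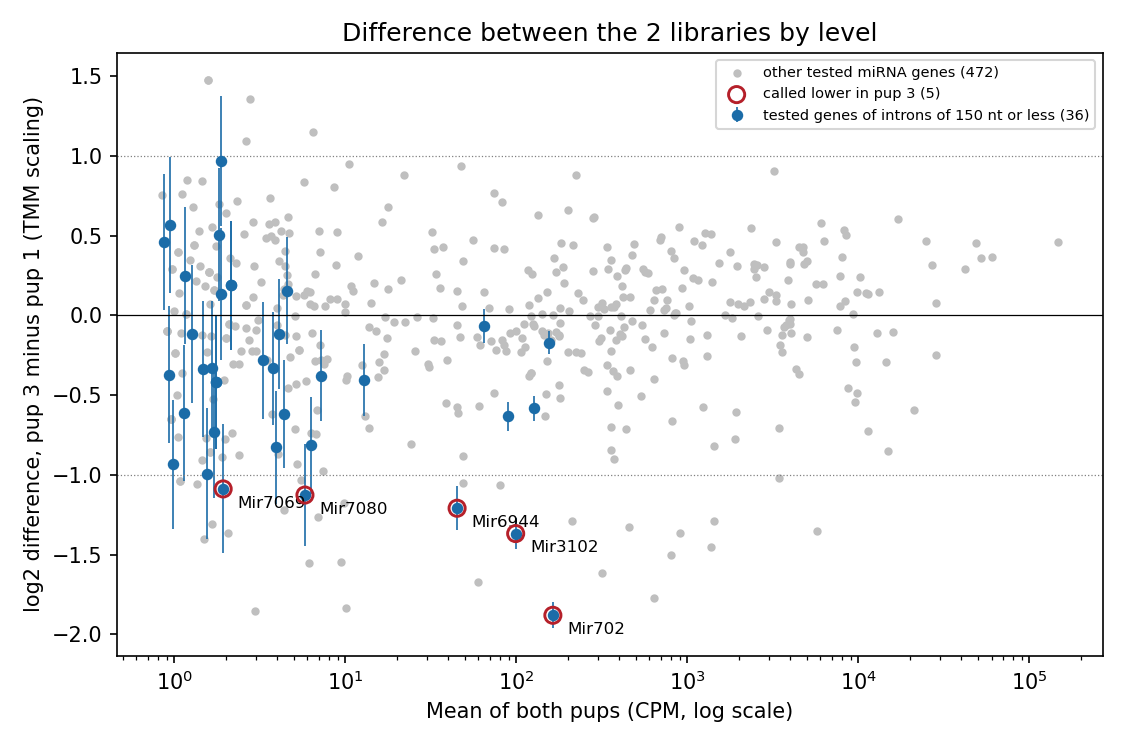
Log2 difference between pups on TMM scaling (y axis) against mean CPM (x axis, log scale) for the 508 tested genes, with blue points for the 36 of introns up to 150 nt, bars for counting SE and red rings for the 5 called. The ringed genes lie between -1.09 and -1.88, and 27 of the 36 blue points lie below 0.

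Counting error leaves out the spread between pups. With that spread taken from edgeR's common dispersion of these 2 libraries (a coefficient of variation of 0.232), a negative binomial exact test called 0 of the 36 genes, and 4 had an unadjusted p under 0.05. It called 0 of all 508 genes, with 31 at an unadjusted p under 0.05. Mir702 had the lowest adjusted p in the set, 0.0770 by this edgeR exact test. GC content moved with the difference. The 65 tested genes outside the set with GC at or above the median of the tested members (61.5%) had a median log2 difference of -0.23, with 49 negative and 16 positive. The part of GC content in the set's difference was not tested.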

How the data were processed

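MicroRNA-seq libraries of 2 hindbrains were used. The authors deposited, per the text files beside the tables, whole-number read counts per miRNA gene (assembly mm10, annotation M4), not normalized, 1 table per library. Neither the aligner nor the program used for counting is given in the sources used here. The labels name 2 pups but give both 1 donor identifier, so whether the libraries come from separate animals is not settled by the labels, and differences between them may be technical. Own-strand counts were used. Reads at several genomic places (37.9% in pup 1, 39.4% in pup 3) and unmapped reads (17.7% and 13.9%) are in rows that name no gene and were left out, so the counts of duplicated genes may be too low. In the set 4 precursors share 20 bases with another miRNA gene, Mir6970, Gm27740, Gm27775 and Gm27924. Gene IDs were matched without version to GENCODE M21 (1894 of 1973, all 81 members with the same version). A further 4 genes of M21 meet the rule without an entry in the tables and were not analysed here.

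The intron described for each gene is the one of 150 nt or less that covers most of it, then the shortest. TMM factors and dispersion came from edgeR 4.0.16 and size factors from DESeq2 1.42.0 in R 4.3.3, and exact tests from scipy 1.17.1. No quasi-likelihood test could be fitted with 1 group. Log2 differences carry a pseudocount of 1 CPM on TMM effective library sizes (ratio 1.16, pup 3 over pup 1). The calling step was checked on simulated counts that held counting error only, so spread between pups was not part of that check. Named genes are all detected members, all called members, 3 on either side of the length limit, 5 mirtrons known by name, and Mir320 and Mir484. Seed sharing, hosts and arms of other members are named after they were seen, and Mir10a is named outside these lists. Members, lists and tests were chosen with earlier results of these data known. Alternatives covered the rule's limits, detection level, strand, scaling, count minimum, pseudocount and each pup left out.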

Additional observations from a re-analysis of the deposited data

How the results depend on the processing

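The set held 58 to 90 genes when the longest intron was 100, 120 or 200 nt, when less or all of a gene had to lie inside, or with other choices of transcripts. At 10 CPM in both pups 8 of its genes were detected and at 5 counts in both pups 30, instead of 19. Without one of the pups 21 to 25 were detected, and the share of counts was 0.0577% to 0.110%. With introns of 100 nt or less the share was 0.0559%, since Mir702 and Mir3102 then drop out. With a minimum of 100 counts in sum, 8 genes of the set were tested and 3 called, without Mir7069 and Mir7080. The negative binomial exact test, chosen after seeing the data and with a dispersion estimated from the same 2 libraries, called 0. DESeq2 size factors added Mir5132, as higher in pup 3, and library totals added Mir6953, and both kept the 5. The median of the tested genes in the set was -0.31 with DESeq2 size factors and -0.47 on library totals, where the median of all 508 was 0.06 and -0.15. Relative to all genes the set thus lay at -0.36 with TMM, -0.37 and -0.32. Of the 80 alternatives for the log2 differences of 20 named genes, 77 kept direction and call. Mir3547 turned positive, at 0.020, with DESeq2 size factors, and Mir7069 and Mir7080 fell short of 2-fold with a pseudocount of 5 CPM, at -0.44 and -0.68. No comparison can be made with a pup left out, and no paired analysis was possible because there is 1 group.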
